A study of Mus musculus with 8 samples.

Results

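The AP-1 transcription factors Fos, Fosb, Fosl2, Jun, Junb, Jund and Atf3 were examined in DC-restricted progenitors (CDPs) from the BM of high fat diet (HFD) and control chow-fed (CF) mice. The members were chosen by gene symbol, and 7 of the 16119 genes in the count table carried them. RNA of sorted CDPs was sequenced in 8 libraries, 4 per diet. The labels give the strain of both groups as C57BL/6, and the methods of the study describe C57BL/6J males. HFD mice received 60 kcal% fat and are labelled as diet-induced obese (DIO) animals fed for 16 weeks. CF mice received 10 kcal% fat and served as their age-matched DIO controls. The labels name no transgene or drug in these groups. CDPs were sorted as Lin-, c-kit int, Sca1 lo, CD115+ and Flt3+ cells straight into lysis buffer. The labels give 4 mice per diet without tying a mouse to a library, so p values measure the spread between these libraries.

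AP-1 is a dimer of basic leucine zipper proteins in which a Jun protein pairs with a Fos protein, with an ATF protein or with another Jun protein. Fos proteins cannot bind DNA as dimers of their own kind. Fos, Fosb, Jun, Junb and Atf3 are classical immediate early genes. Their transcription starts within minutes of a growth factor, a cytokine or a stress signal, through ERK, JNK and p38 MAPK and through factors such as SRF, the TCF proteins and CREB already present in the cell. Their mRNAs are short lived, and tissue dissociation and cell sorting are known to induce them. In the myeloid lineage AP-1 proteins work beside PU.1 and C/EBP factors, and mature neutrophils and monocytes carry abundant Fos and Junb mRNA. The study asked how diet alters MAPK signalling in CDPs, and AP-1 genes are a transcriptional output of that cascade.

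The start regions of Fos, Jun, Fosb and Junb are shown because stimulus-responsive elements lie next to the start of these genes. RefSeq on GRCm38.p6 held an entry for all 7 of the 7 members. Each sequence covers the 150 bases before the RefSeq transcription start, 5′ to 3′ on the strand of the gene, and capitals mark the motif matches. Fos lies at chr12:85473740-85473889 on the plus strand. The Jun sequence covers chr4:95052223-95052372, the Fosb sequence chr7:19310046-19310195 and the Junb sequence chr8:84978749-84978898, all on the minus strand.
Fos: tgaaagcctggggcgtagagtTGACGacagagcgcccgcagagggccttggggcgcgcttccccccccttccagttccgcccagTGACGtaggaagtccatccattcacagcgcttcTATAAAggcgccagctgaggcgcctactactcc
Jun: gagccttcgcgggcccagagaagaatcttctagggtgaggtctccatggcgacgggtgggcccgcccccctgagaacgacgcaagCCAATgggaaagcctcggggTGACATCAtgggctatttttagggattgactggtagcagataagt
Fosb: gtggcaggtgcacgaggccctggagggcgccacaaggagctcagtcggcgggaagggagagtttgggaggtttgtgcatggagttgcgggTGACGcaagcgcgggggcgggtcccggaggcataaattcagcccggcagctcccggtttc
Junb: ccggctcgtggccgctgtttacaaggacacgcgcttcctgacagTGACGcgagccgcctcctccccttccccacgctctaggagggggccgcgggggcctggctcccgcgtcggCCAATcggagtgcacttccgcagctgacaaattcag
In these sequences TGACG is the core of the cAMP response element (CRE) bound by CREB and ATF proteins. The letters were searched on both strands in the 250 bases before the start. Counted back from the base before the start, Fos held TGACG at -129 to -125 and at -66 to -62. Fosb held it at -60 to -56 and Junb at -106 to -102. Atf3 held its reverse complement at -7 to -3. Thus 4 of 7 members matched TGACG, against 17.8% of 32851 RefSeq promoters of the same length. Jun held TGACATCA, a variant bound by Jun and ATF dimers, at -45 to -38, a match found in 2.93% of promoters. Jun and Junb also held CCAAT, at -65 to -61 and at -36 to -32, found in 33.8% of promoters. Fos held the TATA box letters TATAAA at -33 to -28, found in 12.4%. The AP-1 site TGANTCA, the full CRE TGACGTCA (which contains TGACG) and the CArG box of SRF matched in 0 members within these windows. They matched in 6.75%, 1.55% and 1.47% of promoters. Sites farther than 250 bases before the start were not searched. The RefSeq start of Fosl2, Jund and Atf3 lay 671, 1210 and 34706 bases from the GENCODE gene start, so the windows of these 3 genes stand for one of several starts.

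Total counts were 28203651 to 38969160 in HFD libraries and 32575696 to 48409689 in CF libraries. The 8 DC progenitor and sort markers were present in every library, with Flt3 at 88.8 to 378.0 CPM and Irf8, the factor that directs DC development, at 250.7 to 673.8 CPM in HFD libraries. Marker genes of mature neutrophils were also present, although the sort excluded Lineage-positive cells. The summed level of the 8 neutrophil markers (S100a8, S100a9, Ngp, Ltf, Camp, Lcn2, Mmp8 and Retnlg) was 18771.3, 3342.1, 1183.3 and 883.7 CPM in HFD replicates 1 to 4. It was 1799.8, 6119.0, 5607.1 and 5524.4 CPM in CF replicates 1 to 4. HFD replicate 1 was highest of all libraries in 8 of 8 neutrophil markers, and CF replicate 1 was the lowest CF library. HFD replicate 1 also had the highest summed erythroid level (389.8 CPM, other HFD libraries 79.9 to 121.5) and the lowest summed sort marker level (703.9 CPM, other libraries 1064.9 to 1394.6). The monocyte and macrophage markers summed to 2219.6, 846.6, 348.3 and 527.3 CPM in HFD replicates 1 to 4 and to 614.8, 1210.8, 965.0 and 864.5 CPM in CF replicates 1 to 4. The granulocyte progenitor markers summed to 1157.9, 398.1, 251.5 and 214.0 CPM in HFD and to 324.7, 671.3, 715.0 and 460.5 CPM in CF replicates 1 to 4. In both sums HFD replicate 1 was highest of 8 and CF replicate 1 lowest of the CF libraries. Lyz2, which neutrophils also express, made up 1709.3 CPM of the monocyte sum in HFD replicate 1, and that library was highest in 3 of 7 monocyte markers, against 5 of 5 granulocyte progenitor markers. Without Lyz2 the monocyte sum was 510.3 CPM in HFD replicate 1, 233.1 to 535.3 CPM in the other HFD libraries and 413.2 to 597.7 CPM in CF libraries. The part of either cell type in the AP-1 values was not tested. Results that rest on HFD replicate 1 are therefore given with and without it. Plasmacytoid DC markers (Siglech, Bst2, Ccr9, Ly6d and Runx2) ran the other way. They summed to 218.9, 595.6, 446.4 and 602.1 CPM in HFD replicates 1 to 4 and to 336.0, 356.2, 288.8 and 325.3 CPM in CF replicates 1 to 4, so HFD replicates 2 to 4 lay above every CF library and HFD replicate 1 below them. Of these 5 markers 5 were fitted higher in HFD (59.7% of all genes were), 4 had an unadjusted p below 0.05 (3.22% of all genes) and 0 were called by edgeR. Of 6 B cell markers, 6 were fitted higher, 4 at an unadjusted p below 0.05 against the same 3.22%, and 0 were called (44.9 to 106.5 CPM summed in HFD, 45.7 to 76.0 in CF). The part of plasmacytoid DC or B cell RNA in the AP-1 values was not tested. In bulk RNA, fewer cells of a type and less RNA per cell cannot be told apart.

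All 7 members had a lower mean level in HFD than in CF libraries, but none passed the test over all genes. With edgeR and Benjamini-Hochberg adjustment over 15837 genes, 0 of 7 members were called, beside 67 genes called lower (0.423% of those tested) and 0 called higher. Of these 67 genes 4 were protein-coding, and most of the others were rRNA (27), snoRNA (17) and snRNA (14) genes. The part of these short RNA classes in the AP-1 values was not tested. With protein-coding genes fitted alone, 0 genes were called, and 2.14% were lower at an unadjusted p below 0.05. DESeq2 called 3 members lower (Fosb, Jun and Jund), beside 3.18% of all genes. In simulated counts 22.9% of DESeq2 calls were false, against 10.5% of edgeR calls. At an unadjusted p below 0.05, Jun, Fosb and Jund were lower, 3 of 7 members, against 5.34% of all genes tested. None was higher, against 3.22% of all genes. In the same 3 members every HFD library lay below every CF library, against 3.58% of all genes and 0.951% of protein-coding genes. In 6 of 7 members at least 3 HFD libraries lay below the lowest CF library, against 10.1% of all genes, a count chosen after the values of HFD replicate 1 were seen. The median log2 fold change of the 7 members was -0.94, beside 0.05 over all genes tested. Without HFD replicate 1 it was -1.97, beside 0.03.

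**Figure D1:**
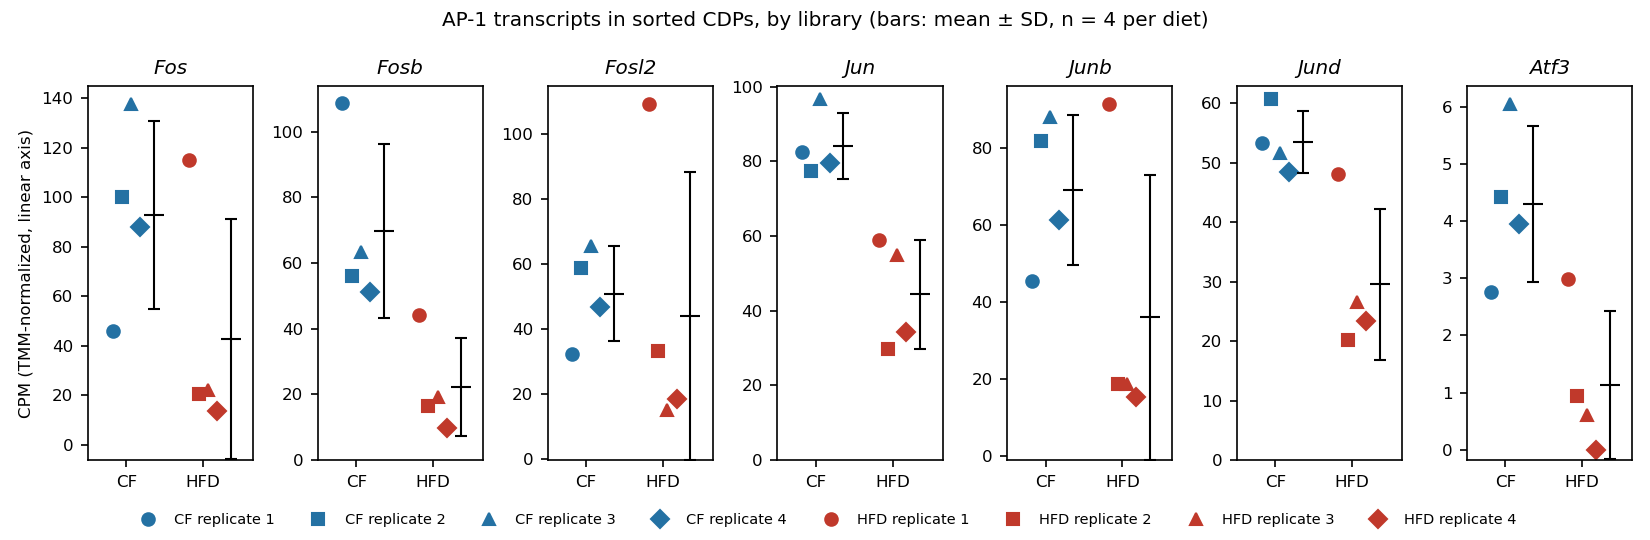
Level of each AP-1 transcript in CPM (TMM-normalized, linear axis, one scale per gene) in the 4 CF and 4 HFD libraries, with mean ± SD as bars. HFD replicates 2 to 4 sit at the bottom of every panel except Fosl2, in which CF replicate 1 (32.4 CPM) lies just under HFD replicate 2 (33.2 CPM), and HFD replicate 1 stands above the other HFD libraries in all 7 panels.

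Fos (ENSMUSG00000021250, chr12:85473890-85477273, plus strand, GRCm38) encodes the founding Fos protein and is the textbook immediate early gene. Fos was measured at 114.9, 20.5, 22.0 and 13.5 CPM in HFD replicates 1 to 4 and at 45.8, 100.1, 137.7 and 88.0 CPM in CF replicates 1 to 4. HFD replicates 2 to 4 lay below all CF libraries, and HFD replicate 1 was second highest of 8. The mean was 42.7 ± 48.3 CPM in HFD and 92.9 ± 37.9 CPM in CF (SD, n = 4 each). The log2 fold change was -1.12 (SE 0.68, edgeR adjusted p = 0.773). Without HFD replicate 1 it was -2.32 (SE 0.37, adjusted p = 0.0342), a call that rests on leaving that library out. HFD replicate 1 carried 5.6 times the median of the other HFD libraries, and CF replicate 1 carried 0.457 times the median of the other CF libraries.

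Fosb (ENSMUSG00000003545, chr7:19302696-19310051, minus strand) encodes a Fos protein whose truncated splice form accumulates under repeated stimulation. Its level was 44.0, 16.3, 19.2 and 9.88 CPM in HFD replicates 1 to 4, and 108.8, 56.1, 63.2 and 51.1 CPM in CF replicates 1 to 4. The diets did not overlap, and the highest library of each diet was its replicate 1. Means were 22.3 ± 15.0 and 69.8 ± 26.5 CPM (SD, n = 4 each). The log2 fold change of Fosb was -1.65 (SE 0.46), with an unadjusted p of 0.00623 in edgeR and an adjusted p of 0.204. It passed the threshold with DESeq2 (adjusted p = 0.00577) and in edgeR without HFD replicate 1 (-2.21, adjusted p = 0.0268). Unlike Fos, it was highest in CF replicate 1, at 1.94 times the median of the other CF libraries.

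Fosl2 (ENSMUSG00000029135, chr5:32135801-32157842, plus strand) encodes Fra-2, a Fos protein that lacks the strong activation domain of Fos. Its level was 109.2, 33.2, 15.0 and 18.5 CPM in HFD replicates 1 to 4, and 32.4, 58.9, 65.6 and 46.7 CPM in CF replicates 1 to 4. The diets overlapped, and HFD replicate 1 held the highest value of all 8 libraries. The log2 fold change was -0.21 (SE 0.60, edgeR adjusted p = 0.971), which was within the spread between replicates, and it was -1.20 (SE 0.32, adjusted p = 0.136) without HFD replicate 1. Fosl2 was the member with the weakest diet difference, and its sign turned to 0.07 when HFD replicate 3 was left out.

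Jun (ENSMUSG00000052684, chr4:95049034-95052222, minus strand) encodes c-Jun, the partner shared by Fos and ATF proteins and the substrate after which JNK is named. Its level was 58.8, 29.6, 55.0 and 34.2 CPM in HFD replicates 1 to 4, and 82.5, 77.4, 96.8 and 79.6 CPM in CF replicates 1 to 4. The diets did not overlap, and CF libraries lay close together (84.1 ± 8.75 CPM against 44.4 ± 14.6 CPM in HFD, SD, n = 4 each). With a log2 fold change of -0.92 (SE 0.22), Jun had the lowest p of the members (unadjusted p = 0.00280, edgeR adjusted p = 0.144). HFD replicate 1 was less extreme here, at 1.72 times the median of the other HFD libraries, and HFD replicate 3 was nearly level with it. Jun passed the threshold with DESeq2 (adjusted p = 0.00586) and in edgeR without HFD replicate 1 (-1.08, adjusted p = 0.0484).

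Junb (ENSMUSG00000052837, chr8:84974484-84978718, minus strand) encodes a Jun protein that restrains c-Jun and limits proliferation of myeloid progenitors. Its level was 91.4, 18.8, 18.7 and 15.3 CPM in HFD replicates 1 to 4, and 45.4, 81.8, 88.0 and 61.2 CPM in CF replicates 1 to 4. As for Fos, HFD replicates 2 to 4 lay below all CF libraries, but for Junb HFD replicate 1 was also above every CF library. Junb had a log2 fold change of -0.94 (SE 0.59, edgeR adjusted p = 0.778) and, without HFD replicate 1, -1.97 (SE 0.23, adjusted p = 0.0164).

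Jund (ENSMUSG00000071076, chr8:70698949-70700616, plus strand) encodes the Jun protein that most cells express without a stimulus. Its level was 48.1, 20.1, 26.6 and 23.3 CPM in HFD replicates 1 to 4, and 53.3, 60.7, 51.6 and 48.4 CPM in CF replicates 1 to 4. The diets did not overlap, but HFD replicate 1 fell only just short of the lowest CF library. Jund had a log2 fold change of -0.86 (SE 0.26, unadjusted p = 0.00903, edgeR adjusted p = 0.256). It was -1.20 (SE 0.13, adjusted p = 0.0150) without HFD replicate 1 and passed the threshold with DESeq2 (adjusted p = 0.0399).

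Atf3 (ENSMUSG00000026628, chr1:191170296-191218039, minus strand) encodes a stress-induced ATF protein that represses as a homodimer and pairs with Jun proteins. It was the rarest member, at 2.98, 0.944, 0.603 and 0.0 CPM in HFD replicates 1 to 4, and at 2.76, 4.42, 6.05 and 3.95 CPM in CF replicates 1 to 4. These levels came from 93, 30, 23 and 0 counts in HFD and from 107 to 192 counts in CF libraries. A count of 0 allows up to 0.0728 CPM (3 counts) in HFD replicate 4, as far as counting error goes. HFD replicates 2 to 4 lay below all CF libraries, and HFD replicate 1 lay just above CF replicate 1. The fitted log2 fold change was -1.94 (SE 0.93, edgeR adjusted p = 0.655) and -3.09 (SE 0.83, adjusted p = 0.135) without HFD replicate 1. It was -1.56 without HFD replicate 4, the library with 0 counts and -3.68 with limma voom, and the cause of this range was not tested.

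**Figure D2:**
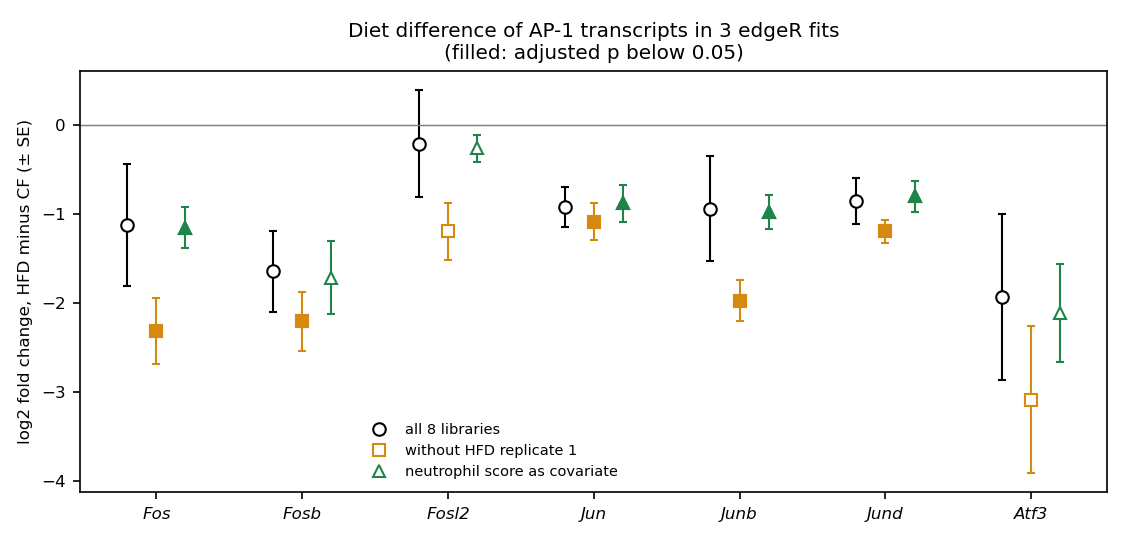
Log2 fold change of HFD against CF with its SE for each member in edgeR, with all 8 libraries (circles), without HFD replicate 1 (squares) and with the neutrophil marker level as a covariate (triangles). Filled symbols mark an adjusted p below 0.05: 0 members with all 8 libraries, 5 without HFD replicate 1 and 4 with the covariate, and every value lies below 0.

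Leaving out HFD replicate 1 called 5 of 7 members lower (Fos, Fosb, Jun, Junb and Jund), beside 1.05% of 15863 genes called lower. This library was the highest HFD library in all 7 members, so leaving it out had to lower every HFD mean. Leaving out any other single library called 0 members. Leaving out CF replicate 1 as well called the same 5 members, beside 2.21% of 15827 genes. In that comparison of 3 libraries with 3, adjusted p was 0.00310 for Fos, 0.00921 for Fosb, 0.0494 for Jun, 0.00118 for Junb and 0.00894 for Jund. Jun stayed close to the threshold in both. Fosl2 (adjusted p = 0.0556) and Atf3 (adjusted p = 0.115) were not called.

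The levels of the members were set against the neutrophil markers. Over the 8 libraries, the mean log2 CPM of the 8 neutrophil markers went with Fosl2 at Pearson's r = 0.965 (Spearman's rho 0.952), with Fos at r = 0.842 (rho 0.857) and with Junb at r = 0.838 (rho 0.952). The exact permutation p of r, adjusted over the 7 members, was 0.00260, 0.0242 and 0.0242. Without HFD replicates 1 and 4, the farthest from the median marker level, r was 0.941, 0.798 and 0.766. For Atf3 r was 0.731 (rho 0.810), with an adjusted permutation p of 0.0663 for r and 0.0381 for rho, and r was 0.798 without the same 2 libraries. For Jund r was 0.595 (rho 0.476), for Fosb 0.499 (rho 0.429) and for Jun 0.394 (rho 0.381), with adjusted permutation p of 0.172, 0.241 and 0.336. After subtraction of the mean of each diet, r was 0.972 for Fosl2, 0.939 for Fos, 0.935 for Junb, 0.815 for Atf3, 0.716 for Jund, 0.566 for Fosb and 0.390 for Jun, the same order as the pooled r. A pooled r also holds the difference between diets. Without HFD replicate 1, r ran from 0.555 for Jun to 0.944 for Fosl2, and differences between these r values were not tested. These 7 relations were chosen after the marker levels had been seen.

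**Figure D3:**
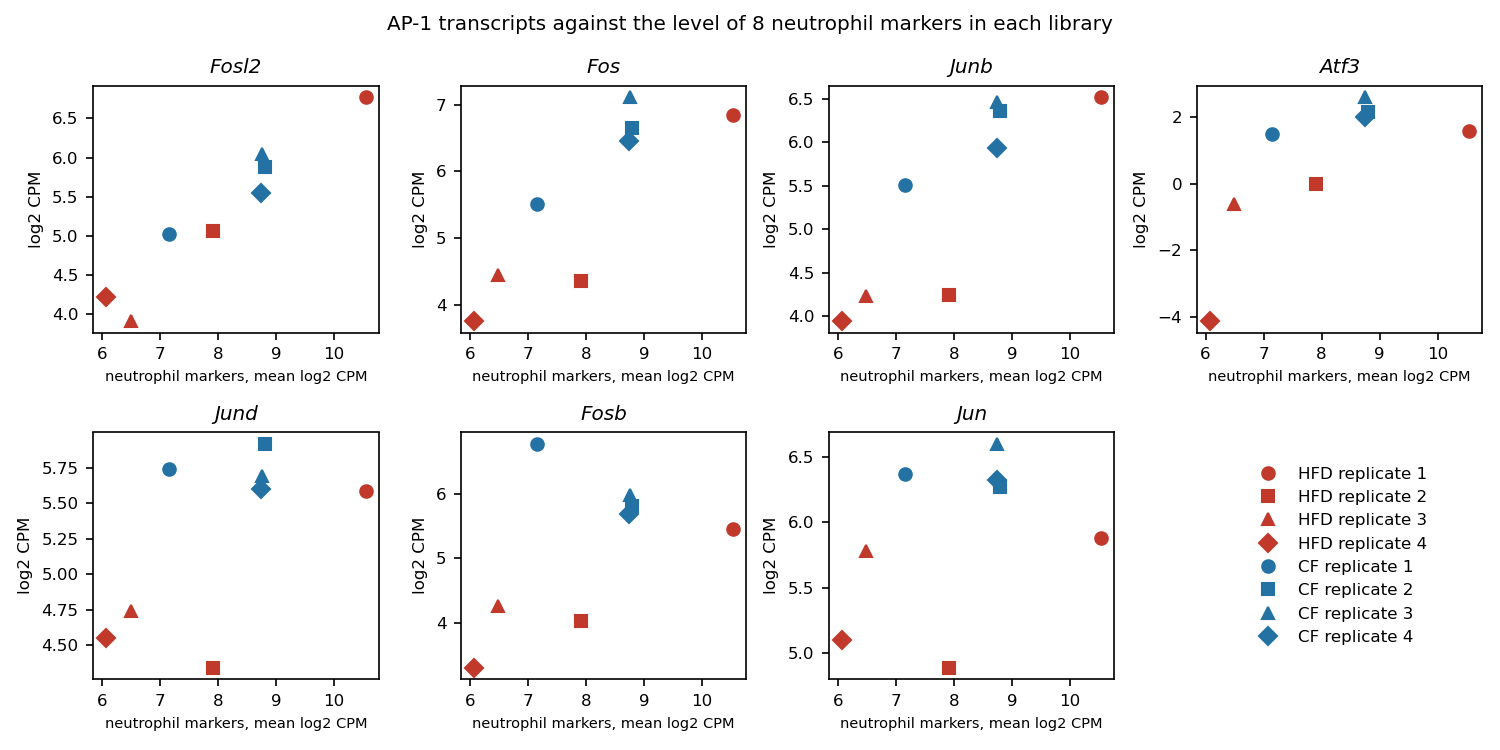
Log2 CPM of each member against the mean log2 CPM of the 8 neutrophil markers, 1 point per library (HFD in red, CF in blue), in order of r from Fosl2 (0.965) to Jun (0.394). HFD replicate 1 is farthest right in every panel (10.54), HFD replicate 4 farthest left (6.07), and CF replicates 2 to 4 lie together (8.74 to 8.80).

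With the neutrophil marker level as a covariate beside the diet, an alternative added after seeing the data, 4 of 7 members were called lower, beside 3.52% of all genes. The log2 fold change was -1.15 for Fos (SE 0.23, adjusted p = 0.0214), -0.98 for Junb (SE 0.19, adjusted p = 0.0198), -0.88 for Jun (SE 0.21, adjusted p = 0.0460) and -0.80 for Jund (SE 0.17, adjusted p = 0.0314). The sizes were close to those with diet alone. The SE was smaller in every member, from 0.60 to 0.15 in Fosl2, 0.68 to 0.23 in Fos and 0.23 to 0.21 in Jun. Fosb (-1.71, SE 0.41) and Atf3 (-2.11, SE 0.55) both had an adjusted p of 0.0738. Fosl2 stayed at -0.26 (SE 0.15, adjusted p = 0.502).

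Members also varied together. Over 21 pairs, r of log2 CPM was positive in 21. Of these, 18 pairs passed a two-sided exact permutation test of r after adjustment over the 21, and 8 passed by Spearman's rho. The share of other gene pairs that would pass is not given here, so these counts describe the members alone. HFD replicates 2 to 4 stood together at the low end of several members, so a pooled r holds this split as well. After the mean of each diet was subtracted, r was still positive in 21 pairs. Fos and Junb were the closest pair, with r = 0.990 (rho 0.952, adjusted permutation p = 0.00208 for r and 0.0120 for rho), r = 0.980 without HFD replicates 2 and 4, and r = 0.982 after subtraction of the diet means. Fosl2 joined them (r = 0.883 with Fos and 0.898 with Junb, adjusted permutation p = 0.0107 and 0.00583). Fosb went with Jund (r = 0.916, adjusted permutation p = 0.0109) and with Jun (r = 0.888, adjusted permutation p = 0.00998). The pairs Fosl2 and Jun (r = 0.471), Fosb and Fosl2 (r = 0.595) and Fosl2 and Jund (r = 0.690) did not pass, with adjusted permutation p of 0.239, 0.127 and 0.0768. In 13 pairs that passed, r stayed above 0.7 without the 2 farthest libraries, and Fos with Fosb was among those that fell, to 0.468.

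Among 11768 other protein-coding genes, those with the profile closest to Fos over the 8 libraries were Dusp1 (r = 0.994), which encodes a MAPK phosphatase, Zfp36 (r = 0.993), whose product tristetraprolin degrades AU-rich mRNAs, and Ier3 (r = 0.987), an immediate early gene. All 3 are induced by the same signals in textbook settings, and they belong to the lists described next. Jun had Mid1 (r = 0.945), Rims3 (r = 0.939) and Zbtb42 (r = 0.932) closest to it. These r values are descriptions without a test.

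Transcripts of Jun, Junb and Jund made up most of the AP-1 transcript level per length. In CPM per kb of exon, the 7 members summed to 155.6, 44.7, 55.5 and 40.6 in HFD replicates 1 to 4 and to 119.1, 155.9, 177.8 and 132.8 in CF replicates 1 to 4. HFD replicate 1 thus lay within the CF range, and the other HFD libraries lay far below it. Jun, Junb and Jund together held 68.4% ± 9.58 of this sum in HFD and 60.9% ± 3.78 in CF (SD, n = 4 each), and Fos, Fosb and Fosl2 held 31.0% ± 9.22 and 37.8% ± 3.57. The shares overlapped between diets through HFD replicate 1 (Jun family 55.9%, Fos family 43.2%). In HFD replicates 2 to 4 the Jun family held 66.0%, 74.4% and 77.3%, above the CF range of 56.0% to 65.1%, and the Fos family 33.0%, 25.1% and 22.7%, below the CF range of 33.8% to 42.4%. In CF libraries the order of mean levels per kb was Fos (39.5 ± 16.1), Jund (32.1 ± 3.11), Junb (30.0 ± 8.49), Jun (26.4 ± 2.74), Fosb (11.2 ± 4.24), Fosl2 (5.26 ± 1.51) and Atf3 (1.99 ± 0.63). The ranges of the first 4 overlapped, so their order is within the spread. The ranges of Fosb, Fosl2 and Atf3 lay below these and apart from each other. In HFD libraries the means per kb were 18.2 ± 20.5 for Fos, 17.7 ± 7.59 for Jund, 15.7 ± 16.1 for Junb, 13.9 ± 4.59 for Jun, 4.54 ± 4.56 for Fosl2, 3.58 ± 2.40 for Fosb and 0.526 ± 0.601 for Atf3, and neighbours in this order overlapped except Fosb and Atf3.

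**Figure D4:**
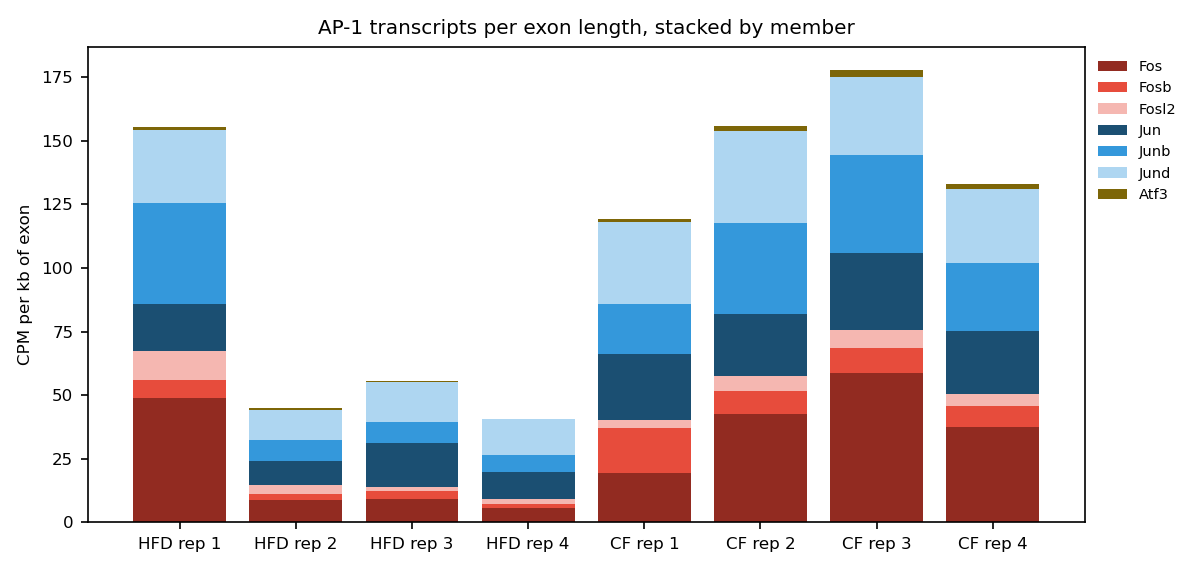
Sum of the 7 members in CPM per kb of exon in each library, stacked by member (reds for the Fos family, blues for the Jun family, brown for Atf3). HFD replicates 2 to 4 reach 40.6 to 55.5, whereas HFD replicate 1 (155.6) stands among the CF libraries (119.1 to 177.8).

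Of 13 other immediate early genes tested, 0 were called by edgeR with diet alone and all 8 libraries, beside 0.423% of all genes called lower. All 13 were fitted lower in HFD libraries, by -1.48 to -0.02 on the log2 scale with a median of -0.68, against 40.3% of all genes fitted lower. Without HFD replicate 1, the highest library in 8 of the 13, this median was -1.22. Of the 13, 3 had an unadjusted p below 0.05 and a lower fit, against 5.34% of all genes. DESeq2 called 0 of them as well. Gadd45b, a stress-induced growth arrest gene that activates MAP kinase kinase kinases, was at 2.49 to 6.29 CPM in HFD and 6.18 to 8.53 CPM in CF (-0.90, SE 0.28, edgeR adjusted p = 0.271). Dusp2, a MAPK phosphatase, was at 13.6 ± 5.35 CPM in HFD and 21.5 ± 4.18 CPM in CF (SD, n = 4 each; -0.67, SE 0.27, adjusted p = 0.499). Without HFD replicate 1, 8 of 13 were called lower, Gadd45b, Dusp1 and Ier3 among them, against 1.05% of all genes. With the covariate 4 of 13 were called lower, against 3.52% of all genes.

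Genes that set AP-1 activity after transcription or before it were also fitted. Of 20 MAPK pathway kinases and SRF or TCF factors, 0 were called, with a median log2 fold change of 0.07. Only 0.423% of all genes were called lower and 0 higher, so 0 calls in a short list says little about its genes. At an unadjusted p below 0.05, 1 of the 20 was lower, a share near the 5.34% of all genes. By the lowest p the genes named are Map2k7 and Rps6ka3. Map2k7, the kinase that activates JNK, was at 12.7 ± 1.84 CPM in HFD and 17.6 ± 4.23 CPM in CF (SD, n = 4 each; -0.47, SE 0.19, adjusted p = 0.514). Rps6ka3, the kinase RSK2, had a log2 fold change of 0.45 (SE 0.23, adjusted p = 0.687; 0.27 without CF replicate 1). None of the 20 was called by DESeq2. Of 11 other partners in the bZIP family, 0 were called, with a median of -0.07 (-0.34 without HFD replicate 1). Batf3, which conventional DCs need for cross-presenting subsets, was at 0.786 ± 0.589 CPM in HFD and 1.37 ± 0.426 CPM in CF. Its log2 fold change was -0.79 (SE 0.60, edgeR adjusted p = 0.820). It was -0.46 without HFD replicate 1 and -1.57 (SE 0.40, adjusted p = 0.0661) with the neutrophil covariate. Maff, a small Maf protein, had a log2 fold change of -0.50 (SE 0.39, adjusted p = 0.830; -0.27 without HFD replicate 2).

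With diet alone and all 8 libraries, edgeR called 0 regulators of AP-1 turnover and 0 AP-1 target genes, beside 0.423% of all genes called lower. Of 10 turnover regulators 0 passed the test, with a median of -0.01. Zfp36 followed Fos, at 160.6, 42.2, 36.2 and 30.6 CPM in HFD replicates 1 to 4 and 66.9, 138.7, 159.9 and 127.3 CPM in CF replicates 1 to 4. Its log2 fold change was -0.87 (SE 0.55, edgeR adjusted p = 0.782), and -1.76 (adjusted p = 0.0321) without HFD replicate 1. With the neutrophil covariate it was -0.82 (SE 0.15, adjusted p = 0.0127), the only call in either list, against 3.52% of all genes called lower. Nedd4, a ubiquitin ligase, was at 0.25 (SE 0.21, adjusted p = 0.844) on the log2 fold change scale, and at 0.07 without HFD replicate 1, its highest library. Of 12 textbook targets 0 were called, with a median of 0.01. Without HFD replicate 1 the median of the targets was -0.66 and 1 was called lower (Tnf), against a median of 0.03 and 1.05% called lower over all genes. Without CF replicate 1 as well it was -0.84 with 4 called lower (Hmox1, Mmp9, Plaur and Tnf), against 0.03 and 2.21% over all genes. These genes were named after their values were seen. Ccl3, a chemokine, was lower by the fit (-1.02, SE 0.38, adjusted p = 0.430), and Ccnd1, which encodes cyclin D1, was higher (0.73, SE 0.31, adjusted p = 0.553), each with overlapping diets and an unadjusted p below 0.05. Ccnd1 was at 0.36 with an unadjusted p of 0.177 in edgeR without HFD replicate 4, its highest library (125.2 CPM). DESeq2 called no gene of either list.

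The stress genes Hspa1a and Hspa1b encode the inducible HSP70 chaperone. They gave the only calls among these lists in edgeR with diet alone and all 8 libraries. Hspa1a was at 55.6, 20.3, 17.0 and 27.6 CPM in HFD replicates 1 to 4 and at 297.6, 254.8, 240.5 and 198.5 CPM in CF replicates 1 to 4. Hspa1b was at 69.3, 24.2, 19.6 and 36.3 CPM in HFD and at 367.6, 292.0, 272.1 and 236.4 CPM in CF replicates 1 to 4. The diets lay far apart in both genes, and HFD replicate 1, the highest HFD library, was still far below every CF library, unlike in Fos and Junb. The log2 fold change was -3.04 (SE 0.38) and -2.97 (SE 0.40), each with an edgeR adjusted p of 0.0355. The genes are near-identical copies, so their split of reads is uncertain and they count as 1 observation. Both calls were lost when any of HFD replicates 2 to 4 or CF replicates 1 to 3 was left out (adjusted p 0.0666 to 0.191) and were kept without HFD replicate 1. With each of these libraries left out in turn, the log2 fold changes stayed large, and over all 8 such fits they ran from -3.52 to -2.85 for Hspa1a and from -3.45 to -2.75 for Hspa1b. The other 8 heat shock genes were not called by edgeR with diet alone and all libraries, and the list had a median of -0.06. Among them Dnajb1, an HSP40 co-chaperone named after its values were seen, was at 31.2 to 45.8 CPM in HFD and 50.8 to 95.3 CPM in CF (-0.94, SE 0.20, adjusted p = 0.0972). It was called with DESeq2 (adjusted p = 0.00123), with the covariate (0.0211) and without CF replicate 4 (0.0303).

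Reads of Jun, Junb and Jund could include some from genes on the other strand, since the strand setting of the counting is not given in the sources used here. The antisense genes Junos and Gm11175, which overlap Jun and Jund, were at 0.340 to 4.43 CPM and 0.0 to 1.17 CPM over both diets. Prdx2, which overlaps Junb, was at 22.3 to 49.7 CPM. Its values overlapped between diets, and its HFD mean (33.8 CPM) was above its CF mean (26.3 CPM), the reverse of Junb. Gm11175 was at 0.268 ± 0.216 CPM in HFD and 0.763 ± 0.275 CPM in CF, the direction of Jund, and Junos was at 1.74 ± 1.83 and 1.08 ± 0.216 CPM, the reverse of Jun (SD, n = 4 each).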

How the data were processed

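RNA of sorted CDPs from 8 mouse libraries, 4 HFD and 4 CF, was analysed. The authors deposited raw counts per gene. Per the methods of the study and the submitters' processing notes, reads were trimmed with cutadapt, aligned with HISAT2 to GRCm38 and counted with StringTie on GENCODE genes, with rRNA depleted during library preparation. The annotation release and the strand setting are not given in the sources used here. The libraries were amplified, and whether molecular identifiers were used in counting is not given in the sources used here, so floors cover counting error only. Columns were matched to samples by their suffix (an S and a number), which occurs in 1 sample title each, although the prefix shared by all columns differs from that of 7 of the 8 titles. There were 0 columns of no sample. The table had no gene with a highest count under 29. Ensembl identifiers of 16067 of 16119 genes were matched to GENCODE vM21 for names, positions and exon lengths, and promoters came from RefSeq on GRCm38.p6.

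Counts were analysed with edgeR 4.0.16 in R 4.3.3. Genes kept by filterByExpr (15837) were normalized by TMM (factors 0.80 to 1.18) and tested with glmQLFit (robust) and glmQLFTest for HFD relative to CF, with no other term. P values were adjusted by Benjamini-Hochberg over every tested gene, and 0.05 was the threshold. CPM used TMM library sizes, and log2 CPM a prior count of 2. Permutation tests of r were exact over 40320 orders and two-sided. Alternatives were DESeq2 1.42.0, limma 3.58.1 (voom and a linear model on log2(CPM + 1)), other scalings and filters, a replicate block, each library left out, HFD replicate 1 and CF replicate 1 left out, and a neutrophil covariate. Counts simulated from these libraries gave edgeR 80.0% of genes changed 4-fold and 25.6% of those changed 2-fold (15774 genes, HFD against CF, 198 changed), and 10.5% of its calls were false.

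The members and the gene lists were chosen with earlier results of these data known. Named genes are the 7 members, the 2 lowest p of each other list, the 3 genes closest in profile to Fos and to Jun, the cell type markers, and Hspa1a and Hspa1b. Tnf, Hmox1, Mmp9, Plaur and Dnajb1 were named after their values were seen, and Junos, Prdx2 and Gm11175 because they overlap members. Libraries all differed beyond sampling noise and were counted as separate. Genes of the lists that are missing from the table (Fosl1, Batf2, Timp1, Il6, Egr2, Egr3 and Gzma) were not analysed here.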

Additional observations from a re-analysis of the deposited data

Results flagged for a closer look

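In each diet the 7 members, the summed markers of each cell type and the other named list genes were examined for a library far from the other 3. Of the 54 groups of 4 libraries, 6 held such a library, and chance gives about 1 in 20. In 5 of the 6 it was HFD replicate 1. Its Fos level was 114.9 CPM (13.5 to 22.0 in the other HFD libraries), and its Junb level was 91.4 CPM (15.3 to 18.8). Its Zfp36 level was 160.6 CPM (30.6 to 42.2). The same library had a summed neutrophil marker level of 18771.3 CPM (883.7 to 3342.1) and a summed erythroid marker level of 389.8 CPM (79.9 to 121.5). In CF libraries, CF replicate 1 had the lowest summed neutrophil marker level, 1799.8 CPM, against 5524.4 to 6119.0 in the others. These groups share libraries and are not independent of each other.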

How the results depend on the processing

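The direction of each member was kept under 19 alternatives, except that Fosl2 turned to 0.074 without HFD replicate 3. The threshold was crossed only under some: DESeq2 called 3 members (Fosb -1.66, Jun -0.93, Jund -0.87), the fit without HFD replicate 1 and CF replicate 1 called 5 (Fos -2.54, Fosb -1.91, Jun -1.09, Junb -2.13, Jund -1.20), and the neutrophil covariate called 4 (Fos -1.15, Jun -0.88, Junb -0.98, Jund -0.80). With single libraries left out, 0 to 5 members were called, and only the fit without HFD replicate 1 called any. The log2 fold changes then ranged from -2.32 to -0.87 for Fos, -2.21 to -1.35 for Fosb, -1.20 to 0.07 for Fosl2, -1.08 to -0.77 for Jun, -1.97 to -0.73 for Junb, -1.20 to -0.71 for Jund and -3.09 to -1.56 for Atf3. Over all alternatives the adjusted p ran from 0.00310 to 0.999 for Fos, 0.00577 to 0.802 for Fosb, 0.00586 to 0.694 for Jun, 0.00118 to 0.999 for Junb and 0.00894 to 0.802 for Jund. Fosl2 (-1.36 without both libraries) and Atf3 were never called. The calls of Hspa1a and Hspa1b were also lost with the linear model, protein-coding genes alone and the replicate block, at log2 fold changes of -3.18 to -3.09 and -3.12 to -3.01.

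Counts over all genes moved more. Genes called lower were 503 with DESeq2, 558 with the covariate, 350 without HFD replicate 1 and CF replicate 1, and 0 with the linear model on log2 CPM or with protein-coding genes alone. Genes called higher were 64, 95 and 38 under the first 3 of these and 10 with scaling by library size, which moved the median log2 fold change of all genes from 0.05 to 0.25. Relative to that median no member changed direction. With one library left out, lower calls ranged from 0 to 166 and higher calls from 0 to 34: 166 lower without HFD replicate 1, 154 without CF replicate 4, 1 each without HFD replicate 2 or 4, and 0 without HFD replicate 3 or CF replicate 1, 2 or 3. In the fixed lists, calls were 2 with all libraries, 16 without HFD replicate 1 and CF replicate 1, 8 with the covariate, 0 with the linear model or protein-coding genes alone, and 0 to 12 with one library left out. Pairs of members past the threshold numbered 11 without HFD replicate 1 and CF replicate 1, and 8 to 19 with one library left out, namely 8 without HFD replicate 4 and 11 without each of CF replicates 2, 3 and 4. The cause of these shifts was not tested.

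The labels state no pairing of libraries between the diets. Same-numbered libraries of both diets correlated at -0.439 to -0.0779 after subtraction of diet means. Whether they share a sort day or batch was not tested. With the replicate number as a block, edgeR called 0 members, 0 genes lower and 0 genes of the fixed lists, and Fos was at -1.76. Fosb was at -1.79 with an SE of 0.197, against 0.456 without the block (adjusted p = 0.463 with it).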
